A study of Caenorhabditis elegans with 12 samples.

Results

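The abu and pqn genes of the nematode Caenorhabditis elegans were examined in poly-A RNA libraries of whole animals. Genes were taken by name, as abu or pqn followed by a number, and kept where at least 4 libraries held 10 or more counts. Of 46926 genes in the table, 70 had such a name (14 abu and 56 pqn), and 60 were kept (11 abu and 49 pqn). All 60 also entered the tests, which covered 16637 genes. Of the 60, 57 reached 10 counts in all 12 libraries, pqn-10 in 10 libraries, and abu-4 and pqn-84 in 8.

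The pqn class is named for a prion-like domain rich in glutamine and asparagine, so the name describes the composition of a protein and not its job. The abu class (activated in blocked unfolded protein response) is named for transcripts that were found to be induced by stress of the endoplasmic reticulum when the canonical unfolded protein response was disabled. Members of both classes form a paralog group of secreted proteins that line the lumen of the pharynx, the feeding organ, with cuticle. This lining is shed and rebuilt at every larval molt, and the transcripts of such genes are known to cycle with the molts. Other pqn genes have unrelated roles, so the 60 genes are not 1 set of pharyngeal cuticle genes and are called abu and pqn genes here.

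There were 3 groups of 4 libraries, all from animals raised at 20 °C from bleached eggs and labelled as fourth-stage larvae. Wild type was N2. The TDP-43 strain carried Psnb-1::TDP-43 together with Pmyo-2::dsRED. The TDP-43ΔNLS strain (TDP-43dNLS in the figures) carried the same promoter before a TDP-43 with the changes K82A, R83A and K84A, together with Pmyo-3::dsRED. These changes replace lysine and arginine residues of the nuclear localization signal by alanine. TDP-43 binds RNA and normally resides in the nucleus, and the series title contrasts its nuclear and cytoplasmic forms. The snb-1 promoter is active in all neurons. The myo-2 promoter of the TDP-43 strain's dsRED marker is active in pharyngeal muscle, and the myo-3 promoter of the other marker in body wall muscle. The wild type strain carried no marker, so the TDP-43 transgene, the marker and the strain background cannot be told apart. Separate cultures are not stated for the 4 libraries of a strain, and p-values below cover the spread among these libraries alone.

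The libraries held 20671982 to 26910097 counts. They fell apart within groups in a list of 21 oocyte and eggshell genes. The list's mean level was 2.18 to 4.07 log2 CPM (CPM, counts scaled to a common library size with TMM) in replicate 4 of wild type, replicate 4 of TDP-43 and replicates 3 and 4 of TDP-43ΔNLS. In the other 8 libraries it was 8.16 to 9.40. The adult collagen col-19 and the yolk protein gene vit-2 divided the libraries in the same way, at 1.24 to 481 CPM for col-19 and 3.16 to 83.4 CPM for vit-2 in the former 4, and at 1569 to 3314 CPM and 1555 to 3978 CPM in the latter 8. The 4 libraries are called larva-like and the 8 adult-like below. These names come from expression and not from the labels, so differences between the 2 sets are described and not tested.

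Per kilobase of exon, the most abundant gene was abu-14, a pharyngeal cuticle gene, with a mean of 270 CPM per kb over the 12 libraries. It was followed by pqn-59 (200 CPM per kb), which encodes a protein linked to stress granules, and by pqn-74 (143), pqn-94 (118), pqn-52 (115.2) and pqn-53 (114.7). The median level was 47.3 CPM per kb for the 11 abu genes and 17.3 CPM per kb for the 49 pqn genes. The lowest was pqn-84 with 0.463 CPM per kb. Together the 60 genes took between 0.328% and 0.652% of the counts of a library.

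The 10 genes that were not kept were abu-2, abu-5, abu-9, pqn-16, pqn-57, pqn-76, pqn-78, pqn-79, pqn-90 and pqn-91. None of them had more than 102 counts over all libraries (pqn-91), and pqn-78 and pqn-79 had 0. Neighbours shared this state: pqn-90 lies 644 bases from pqn-91, pqn-57 lies 1121 bases from abu-9, and abu-5 and pqn-79 lie on either side of pqn-78 on chromosome IV. The genes abu-5, pqn-76, pqn-78 and pqn-79 have the same exon length of 1008 bases in the Ensembl annotation of WBcel235. How reads that match several places were counted is not given in the sources used here, and its part in these low counts was not tested.

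Of the 19 genes named on chromosome V, 18 were kept, against 4 of 10 on chromosome IV. Chromosome V holds abu-15, abu-6 and abu-7 side by side between positions 5158602 and 5164782. It also holds the divergent neighbours abu-1 and pqn-2 between 10380340 and 10384063, with 615 bases between them. Exons of 16 of the 60 genes overlap exons of another gene, and in 11 of those 16 the partner is protein-coding. Whether counting used the strand is not given in the sources used here, so reads of these genes and their partners may be mixed.

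The abu genes varied widely between libraries of the same strain. Their summed level was 1618, 1095, 257 and 1881 CPM in wild type replicates 1 to 4. It was 422, 346, 678 and 2080 CPM in TDP-43 replicates 1 to 4. In TDP-43ΔNLS replicates 1 to 4 it was 744, 199, 1315 and 1045 CPM. The means ± SD (n = 4 each) were 1213 ± 716, 881 ± 811 and 826 ± 478 CPM, and the 3 strains overlapped. Over all 12 libraries the median abu gene differed 7.98-fold between its highest and its lowest library, against 4.02-fold for the median pqn gene and 4.73-fold for the median of all tested genes. A range of more than 3 on the log2 scale was found for 20 of the 60 genes (5 abu and 15 pqn), or 33.3%, against 33.8% of all tested genes. Whole animals were sampled, so fewer cells of a type and less RNA per cell cannot be told apart.

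The gene abu-14 carried much of that sum. It stood at 594, 340, 84.1 and 795 CPM in wild type, at 122, 116, 261 and 899 CPM in TDP-43, and at 274, 49.95, 604 and 420 CPM in TDP-43ΔNLS, replicates 1 to 4 in each case. The larva-like libraries were among the highest, but wild type replicate 1, an adult-like library, lay in their midst, and wild type replicate 3 and TDP-43ΔNLS replicate 2 were the lowest. The same 2 libraries held the lowest level of 10 of the 11 abu genes and of 20 of the 49 pqn genes, 30 of 60 in all, against 22.3% of all tested genes. TDP-43ΔNLS replicate 3 was the lowest for the remaining abu gene, abu-4, which was listed at 0 there.

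The library with the highest level differed between genes. TDP-43 replicate 4 was the highest for 15 of the 60 genes (25%, 5 of them abu), against 16.0% of all tested genes, and wild type replicate 4 for 12 (20%, 2 of them abu), against 8.37%. Other abu genes were highest in wild type replicate 1. In wild type replicates 1 to 4, abu-1 stood at 115.2, 79.2, 20.4 and 60.4 CPM, in TDP-43 at 25.2, 23, 39.6 and 66.6 CPM, and in TDP-43ΔNLS at 55.8, 15.3, 30.5 and 42.6 CPM. The highest and the lowest wild type libraries were both adult-like, and all 3 strains overlapped. The divergent neighbour pqn-2 stood at 86.9, 60.1, 14.4 and 40.5 CPM in wild type, at 16.0, 20.2, 37.6 and 46.2 CPM in TDP-43, and at 47.9, 8.06, 11.1 and 25.7 CPM in TDP-43ΔNLS. Both genes were thus highest in wild type replicate 1 and lowest in TDP-43ΔNLS replicate 2. Wild type replicate 1 was the highest library for 8 of the 60 genes (abu-1, abu-4, abu-7, abu-11, pqn-2, pqn-52, pqn-54 and pqn-72), 13.3% against 6.92% of all tested genes.

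The neighbours abu-15, abu-6 and abu-7 moved over a similar range. The gene abu-15 reached 129 CPM in TDP-43 replicate 4 and went down to 16.5 CPM in TDP-43ΔNLS replicate 2. The gene abu-6 ran from 84.0 to 10.7 CPM between the same libraries. The gene abu-7 ran from 91.9 CPM in wild type replicate 1 to 14.8 CPM in TDP-43ΔNLS replicate 2. In the 2 larva-like TDP-43ΔNLS libraries abu-6 stood at only 17.1 and 22.6 CPM and abu-7 at 27.1 and 21.3 CPM, below wild type replicates 1, 2 and 4 in both genes. Sharing of reads between these neighbours was not tested.

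**Figure D1:**
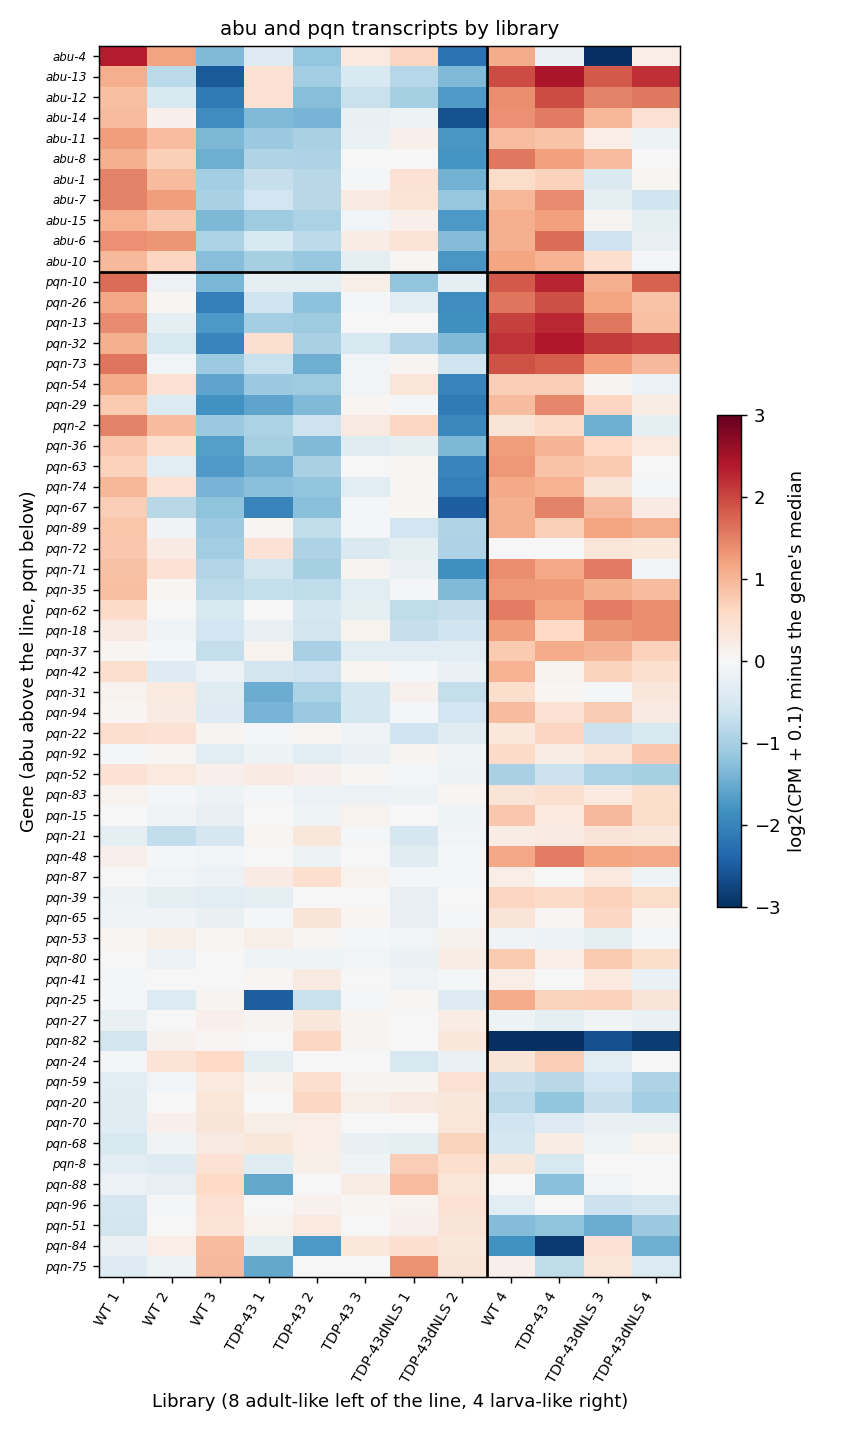
Heat map of the 60 abu and pqn genes (rows, 11 abu above 49 pqn, ordered by the ratio of wild type replicate 1 to replicate 3) in 12 libraries (columns, 8 adult-like then 4 larva-like). Colour gives log2(CPM + 0.1) minus the gene's median over the 12 libraries. Most abu genes and upper pqn rows are low in wild type replicate 3 and TDP-43ΔNLS replicate 2 and high in wild type replicate 1, replicate 4 of wild type and replicate 4 of TDP-43. The larva-like TDP-43ΔNLS libraries are mixed, with abu-6, abu-7 and pqn-2 below their medians there.

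The 2 adult-like wild type libraries at the ends of this range divide the pqn genes. The ratio of wild type replicate 1 to replicate 3 was chosen as a ruler after the values had been seen, and it is given as a description only. It was above 2-fold for all 11 abu genes (4.73 to 16.6, median 5.77) and for 17 of the 49 pqn genes (2.09 to 12.9, median 5.58). That makes 28 of 60 genes, or 46.7%, against 22.8% of all tested genes. For the other 32 pqn genes the ratio was 0.38 to 1.76, with a median of 1.00.

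The 17 pqn genes with the wide ratio were pqn-2, pqn-10, pqn-13, pqn-26, pqn-29, pqn-32, pqn-35, pqn-36, pqn-54, pqn-62, pqn-63, pqn-67, pqn-71, pqn-72, pqn-73, pqn-74 and pqn-89. The adult-like pair TDP-43ΔNLS replicates 1 and 2 did not enter that ratio, but replicate 2 was already known as the lowest library of 8 of the 11 abu genes. In that pair the first library was the higher for 11 of 11 abu genes (median ratio 3.50) and for 15 of these 17 pqn genes (median ratio 2.90), 11 of which exceeded 2-fold. It was the higher for 12 of the other 32 pqn genes (median ratio 0.92). Of all tested genes above 2-fold in the wild type pair, 2861 of 3789 were higher in the first TDP-43ΔNLS library, against 26 of 28 of the abu and pqn genes.

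Among these 17, pqn-74 was the most abundant. It stood at 395, 267, 75.2 and 429 CPM in wild type, at 82.3, 86.4, 154 and 402 CPM in TDP-43, and at 200, 47.2, 258 and 193 CPM in TDP-43ΔNLS. Like abu-14, it was lowest in TDP-43ΔNLS replicate 2. The gene pqn-13 stood at 79.5, 24.6, 8.95 and 123 CPM in wild type, at 14.8, 14.2, 30.4 and 144 CPM in TDP-43, and at 29.4, 8.31, 90.0 and 56.4 CPM in TDP-43ΔNLS. The 3 strains overlapped in both genes.

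At the other end were the pqn genes with the smallest differences between libraries. The gene pqn-53 stood at 196, 211, 193 and 174 CPM in wild type, at 211, 191, 182 and 166 CPM in TDP-43, and at 177, 205, 152 and 178 CPM in TDP-43ΔNLS. Its highest and lowest libraries differed 1.39-fold, the smallest difference among the 60 genes. The next smallest were those of pqn-41 (1.43-fold), whose polyglutamine protein promotes death of the male linker cell, pqn-27 (1.51-fold), pqn-87 (1.6-fold), pqn-83 (1.63-fold) and pqn-65 (1.81-fold). All 6 are pqn genes, and no abu gene differed less than 6.17-fold.

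The split between larva-like and adult-like libraries divided these genes less often than all tested genes. The highest of the 12 libraries was larva-like for 38 of the 60 genes (63.3%), against 50.1% of all tested genes. The larva-like libraries lay above all adult-like ones for 14 of the 60 genes (23.3%), close to the 22.3% of all tested genes. They were abu-12, abu-13, pqn-15, pqn-18, pqn-25, pqn-32, pqn-35, pqn-37, pqn-39, pqn-48, pqn-62, pqn-83, pqn-92 and pqn-94. The larva-like libraries lay below all adult-like ones for 5 genes (8.33%), against 24.6% of all tested genes. They were pqn-20, pqn-51, pqn-52, pqn-59 and pqn-82. The other 41 genes overlapped (68.3%, against 53.1% of all tested genes), among them 9 of the 11 abu genes.

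The widest ranges among genes higher in larva-like libraries belonged to abu-13 and pqn-32. The gene abu-13 stood at 92.7, 25, 7.59 and 169 CPM in wild type, at 59.8, 21.3, 32.0 and 239 CPM in TDP-43, and at 24.3, 17.5, 158 and 201 CPM in TDP-43ΔNLS. The 4 larva-like libraries were its 4 highest, and wild type replicate 1 and TDP-43 replicate 1 came next. The gene pqn-32 stood at 103, 35.4, 12.4 and 223 CPM in wild type, at 69.0, 25.1, 35.2 and 263 CPM in TDP-43, and at 26.7, 19.8, 211 and 197 CPM in TDP-43ΔNLS. The gene abu-12 ran over 64 to 95 CPM in the larva-like and 5.55 to 45.9 CPM in the adult-like libraries. For all 3 genes the lowest of the 12 libraries was wild type replicate 3.

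Of the 5 genes lower in larva-like libraries, pqn-82 had the widest range. It stood at 12.2, 19.7, 18.5 and 2.01 CPM in wild type, at 17.9, 27.9, 19 and 1.56 CPM in TDP-43, and at 18.2, 23, 2.80 and 2.44 CPM in TDP-43ΔNLS. The stress granule gene pqn-59 stood at 391, 464, 604 and 306 CPM in wild type, at 523, 691, 524 and 275 CPM in TDP-43, and at 519, 676, 327 and 257 CPM in TDP-43ΔNLS. Both genes were lowest in the same 4 libraries in which oocyte transcripts were scarce, and the part of germ line content in their levels was not tested. None of the 5 was among the 17 pqn genes that shared the wide wild type ratio with the abu genes.

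**Figure D2:**
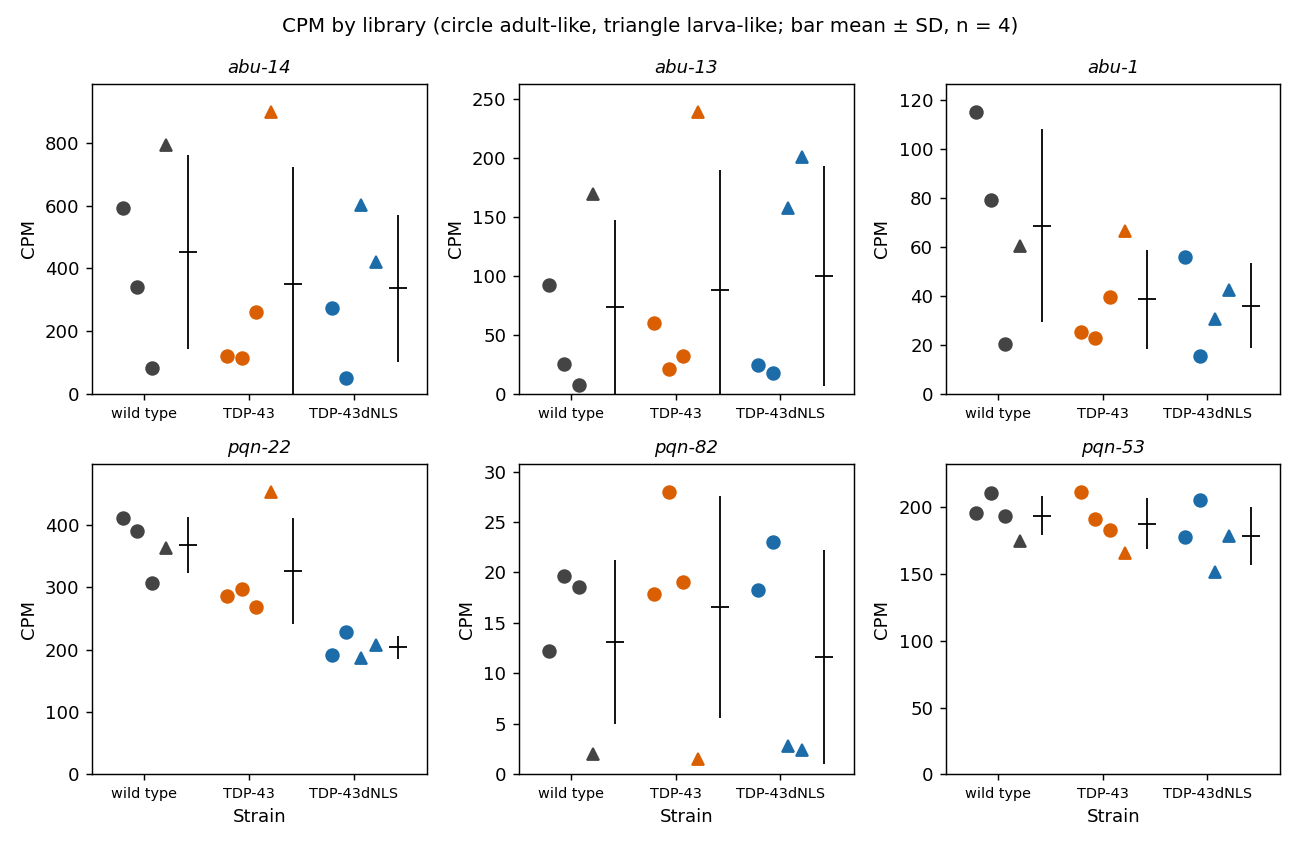
Level (CPM, linear axis from 0) of abu-14, abu-13, abu-1, pqn-22, pqn-82 and pqn-53 in each library by strain. Circles are adult-like and triangles larva-like libraries, and bars give the mean ± SD (n = 4). The abu genes and pqn-82 spread within every strain, pqn-53 hardly varies, and the 4 TDP-43ΔNLS values of pqn-22 (187 to 228 CPM) lie below all wild type and TDP-43 values.

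Levels of several other lists differed between the same libraries. In wild type replicates 1 to 4 the mean level of the 11 abu genes was 6.53, 5.87, 3.79 and 6.46 log2 CPM. The mean of 25 other pharyngeal cuticle genes, among them the chitin synthase gene chs-2, was 4.83, 3.95, 2.41 and 5.19 log2 CPM in the same libraries. The mean of 11 pharyngeal muscle and pharynx identity genes was 5.56, 5.16, 4.48 and 6.42 log2 CPM. Wild type replicate 3 was the lowest wild type library for each of these lists. It was also the lowest for lists of other tissues: the mean of 11 intestine genes was 6.06, 5.62, 5.01 and 6.12 log2 CPM and that of 12 body wall muscle genes 10.48, 10.17, 9.86 and 10.63 log2 CPM. The dip of this library was therefore not confined to pharyngeal transcripts. The oocyte and eggshell list stood at 8.16, 8.83, 9.40 and 2.55 log2 CPM in wild type replicates 1 to 4, highest in replicate 3. The part of oocyte content in the dip was not tested.

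In TDP-43 replicates 1 to 4 the abu mean was 4.66, 4.23, 5.15 and 6.53 log2 CPM. The other pharyngeal cuticle genes had means of 2.91, 2.86, 3.78 and 5.26 log2 CPM, and the pharynx list 4.05, 4.24, 4.44 and 6.08. In all 3 lists replicate 4, the larva-like library, was the highest of that strain. In TDP-43ΔNLS replicates 1 to 4 the abu mean was 5.28, 3.55, 5.36 and 5.55 log2 CPM, that of the other pharyngeal cuticle genes 3.99, 2.16, 4.68 and 4.41, and that of the pharynx list 4.95, 4.29, 6.08 and 5.75. Replicate 2 was the lowest of that strain in each. It was also the lowest for the intestine list (5.44, 4.93, 6.38 and 6.29 log2 CPM), while replicate 1 was the lowest for the body wall muscle list (9.64, 9.69, 10.31 and 10.12 log2 CPM). The oocyte and eggshell list stood at 9.01, 9.31, 2.18 and 4.07 log2 CPM in the same libraries, highest in replicate 2.

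Molting genes, a list of 22 that includes mlt-10 and the cuticle collagen gene dpy-7, were split by set more sharply than the abu genes. The list's mean was 6.76 to 7.23 log2 CPM in the larva-like and 2.93 to 5.50 log2 CPM in the adult-like libraries. In this list 19 of 22 genes were higher in all larva-like libraries, against 22.3% of all tested genes. Wild type replicate 1 had the highest molting mean of the adult-like libraries (5.50 log2 CPM) and wild type replicate 3 the lowest (2.93 log2 CPM). The larva-like libraries lay above all adult-like ones for 4 of 11 pharynx genes, 6 of 10 pharyngeal gland genes and 2 of 25 other pharyngeal cuticle genes. The share of all tested genes was again 22.3%. The mean of the gland list was 3.79 to 4.37 log2 CPM in the larva-like and 1.89 to 3.06 log2 CPM in the adult-like libraries. The part of tissue content or of molt phase in the abu levels was not tested.

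**Figure D3:**
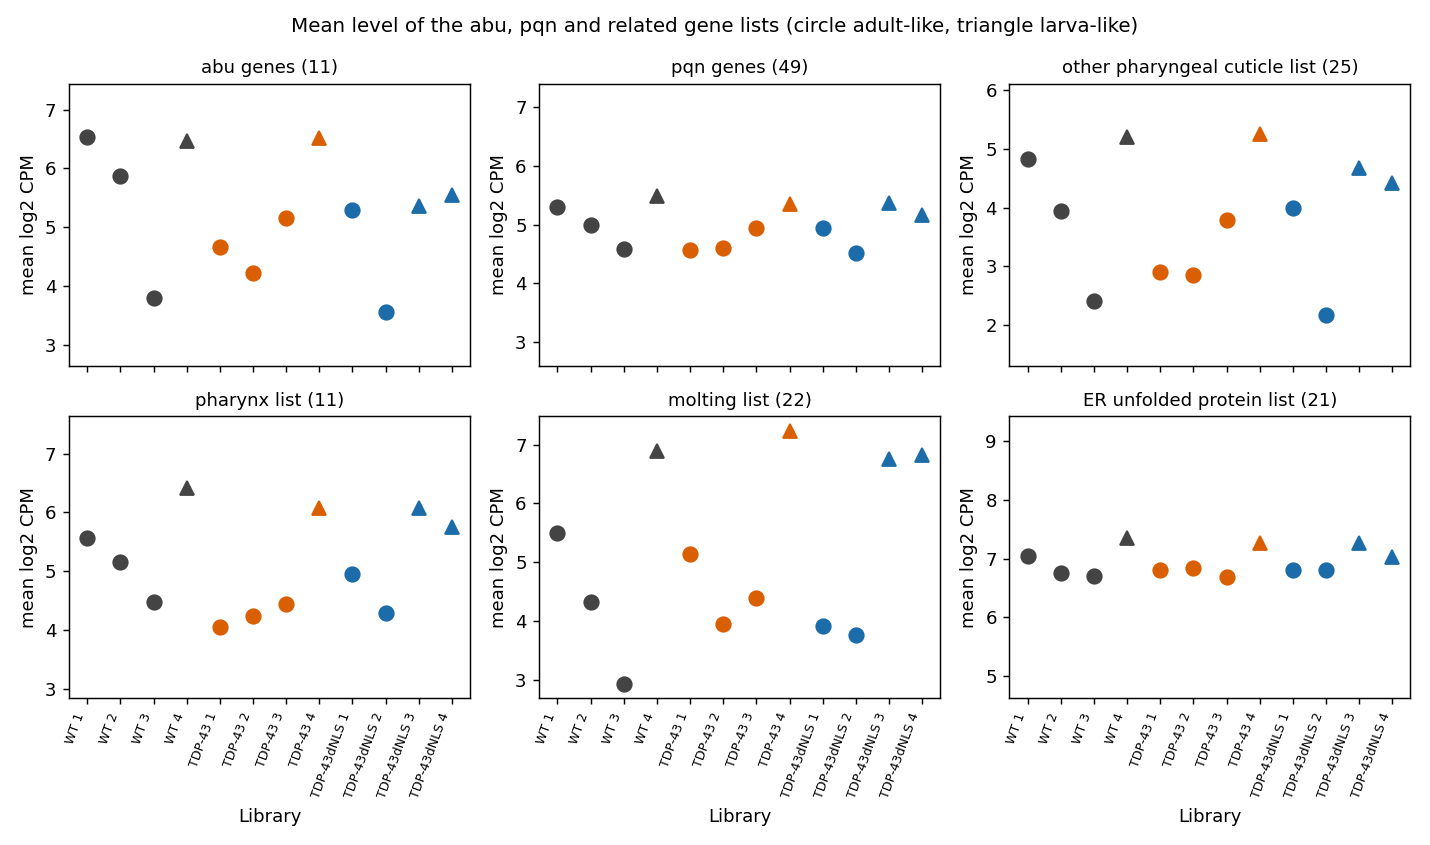
Mean level (log2 CPM) per library of the abu genes, the pqn genes and 4 other lists (25 other pharyngeal cuticle genes, 11 pharynx genes, 22 molting genes and 21 genes of the unfolded protein response of the endoplasmic reticulum), with circles for adult-like and triangles for larva-like libraries. The abu and other pharyngeal cuticle lists both dip in wild type replicate 3 and TDP-43ΔNLS replicate 2, and the mean of the unfolded protein response list lies between 6.69 and 7.35, with members that go both ways.

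Genes of the unfolded protein response of the endoplasmic reticulum, after whose block the abu class was named, went in both directions between the sets. The mean of 21 such genes was 6.69 to 7.04 log2 CPM in the adult-like and 7.04 to 7.35 log2 CPM in the larva-like libraries. Of these 21 genes, 10 were higher in all larva-like libraries (22.3% of all tested genes were) and 5 were lower in all of them (24.6% of all tested genes were). The chaperone gene dnj-27, for example, stood at 62.2 to 84.3 CPM in larva-like and 17.3 to 32.3 CPM in adult-like libraries. The kinase and nuclease gene ire-1 stood at 58.5 to 71.2 CPM in larva-like and 120 to 187 CPM in adult-like libraries, and its target xbp-1 at 312 to 462 and 217 to 289 CPM. The chaperone gene hsp-4, a standard reporter of this response, overlapped at 158 to 408 and 283 to 388 CPM. The receptor genes ced-1 and octr-1, both of which have been linked to abu expression, also overlapped (49.3 to 69.9 against 60.1 to 91.3 CPM for ced-1, and 2.94 to 4.56 against 3.11 to 6.76 CPM for octr-1).

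TDP-43 against wild type asked whether the unaltered transgene strain differed in these genes. None of the 60 genes passed the threshold, a Benjamini-Hochberg adjusted p under 0.05 in edgeR's quasi-likelihood test, and 0.00601% of all tested genes did (1 of 16637). At an unadjusted p under 0.05 the count was 1 of 60 genes, against 1.83% of all tested genes. DESeq2 also called 0 of the 60, against 21 of all 16637 genes. No gene separated the 4 libraries of one strain from those of the other (0.541% of all genes did so upward and 1.11% downward). The median log2 fold change was -0.59 over the abu genes and -0.18 over the pqn genes, against 0.02 over all genes. The sign was negative for 9 of 11 abu genes and 42 of 60 genes in all, against 48.1% of all tested genes. As 10 of 11 abu genes were lowest in wild type replicate 3 or TDP-43ΔNLS replicate 2, their signs here and below are not independent. The standard error of a single abu gene had a median of 0.63. The abu median was -1.30 without TDP-43 replicate 4, -0.91 without wild type replicate 3, -0.38 without TDP-43 replicate 1 and -0.35 without TDP-43 replicate 2.

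The lowest p belonged to pqn-31. It stood at 89.2, 101, 63.7 and 118 CPM in wild type, at 29.3, 42.7, 56.8 and 85.3 CPM in TDP-43, and at 89.5, 50.3, 79.3 and 104 CPM in TDP-43ΔNLS. The TDP-43 libraries were mostly lower, but replicate 4 lay inside the wild type range. The log2 fold change was -0.80 ± 0.35 (SE, unadjusted p = 0.0435, adjusted p = 0.9999 in edgeR). The next were pqn-94 (-0.76 ± 0.46), abu-4 (-1.71 ± 1.09), abu-1 (-0.83 ± 0.55), pqn-21 (0.44 ± 0.29) and pqn-42 (-0.57 ± 0.39), none of which passed. Of these, abu-4 had at most 5.21 CPM in any library.

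Lists of the pharynx, of the intestine and of the adult stage had mostly negative values in this comparison. The log2 fold change was negative for 10 of 11 pharynx genes (median -0.68), among them the pharyngeal myosin genes myo-1 (-0.93) and myo-2 (-0.99), for 8 of 10 pharyngeal gland genes (median -0.34) and for 22 of 25 other pharyngeal cuticle genes (median -0.44). It was also negative for 11 of 11 intestine genes (median -0.37). So it was for 9 of 10 genes of an adult-stage list that includes col-19 and vit-2 (median -0.32). The body wall muscle list had a median of 0.09, with 8 of 12 genes positive, and the molting list a median of 0.27, with 16 of 22 genes positive. The oocyte and eggshell list had a median of 0.19, with 19 of 21 genes positive. The list of the unfolded protein response had a median of -0.05. No gene of these lists passed the threshold. The part of tissue content in the abu values was not tested.

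TDP-43ΔNLS against wild type asked the same of the altered transgene strain, with the same wild type libraries. Again 0 of 60 genes passed, and 0.0% of all tested genes did in edgeR. The unadjusted p was under 0.05 for 2 of 60 genes (pqn-22 and pqn-24), or 3.33%, against 1.45% of all tested genes. The median log2 fold change was -0.93 over the abu genes and -0.04 over the pqn genes, against -0.01 over all genes, and 9 of 11 abu genes and 36 of 60 genes in all were negative, against 50.8% of all tested genes. The median standard error of the abu genes was 0.64. Without TDP-43ΔNLS replicate 2 the abu median was -0.64, and without wild type replicate 3 it was -1.24. Over all 60 genes the median was -0.11, and 0.06 without wild type replicate 4.

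The gene pqn-22 (WBGene00004112, chromosome IV, positions 6019672 to 6033639 in WBcel235) had the lowest p of the 60 in this comparison. It held 412, 390, 307 and 362 CPM in wild type, 285, 296, 268 and 452 CPM in TDP-43, and 192, 228, 187 and 208 CPM in TDP-43ΔNLS. All 4 TDP-43ΔNLS libraries lay below every library of the other strains, and within that strain the larva-like libraries overlapped the adult-like ones. It was the only one of the 60 genes (1.67%) whose TDP-43ΔNLS and wild type libraries did not overlap, against 0.854% of all genes in that direction. In the other direction no such gene was found among the 60, against 0.469% of all genes. The means ± SD (n = 4) were 368 ± 45.1 CPM in wild type, 326 ± 85.0 CPM in TDP-43 and 204 ± 18.2 CPM in TDP-43ΔNLS.

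Against wild type the log2 fold change of pqn-22 was -0.85 ± 0.20 (SE). The unadjusted p of 0.00105 was the 10th lowest of 16637 genes, but the adjusted p was 0.9999 in edgeR's quasi-likelihood test, so the difference did not pass. In DESeq2's Wald test it did, with an adjusted p of 0.0326 and a log2 fold change of -0.85. That test called 16 of all 16637 genes in this comparison. Over 23 alternative settings the log2 fold change stayed between -0.93 and -0.80, and DESeq2 was the only one of them that called it. Exons of pqn-22 overlap those of the protein-coding gene C46G7.1 on the opposite strand by 45 bases, and its reads cannot be separated from that gene's there without strand.

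The gene pqn-24 had the second lowest p, with 76.9 ± 13.3 CPM in wild type, 67.1 ± 22.7 CPM in TDP-43 and 50.8 ± 7.16 CPM in TDP-43ΔNLS. Its wild type and TDP-43ΔNLS libraries overlapped, since wild type replicate 1 held 58.7 CPM and TDP-43ΔNLS replicate 4 held 60.04 CPM. The log2 fold change was -0.60 ± 0.26 (unadjusted p = 0.0428, adjusted p = 0.9999 in edgeR). The following 4 genes were abu-7 (-1.24 ± 0.60), abu-6 (-1.25 ± 0.63), pqn-2 (-1.12 ± 0.65) and abu-1 (-0.93 ± 0.55). All 4 lie on chromosome V in the neighbourhoods described above, and none passed. In this comparison 22 of 25 other pharyngeal cuticle genes and 8 of 11 pharynx genes were negative (medians -0.30 and -0.30), while 9 of 10 pharyngeal gland genes were positive (median 0.23). Negative values were not confined to the pharynx. They were found for 9 of 12 body wall muscle genes (median -0.52), 21 of 21 oocyte and eggshell genes (median -0.27) and 6 of 11 intestine genes (median -0.025). The adult-stage list had 9 of 10 genes negative (median -0.39). In the molting list 18 of 22 genes were positive (median 0.44). Replicates 3 and 4 of TDP-43ΔNLS were larva-like, against replicate 4 alone in wild type. All 21 oocyte and eggshell genes were lower, and 19 of 22 molting genes higher, in all larva-like libraries. The part of this imbalance in the list values was not tested. The part of these lists in the abu values was not tested.

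**Figure D4:**
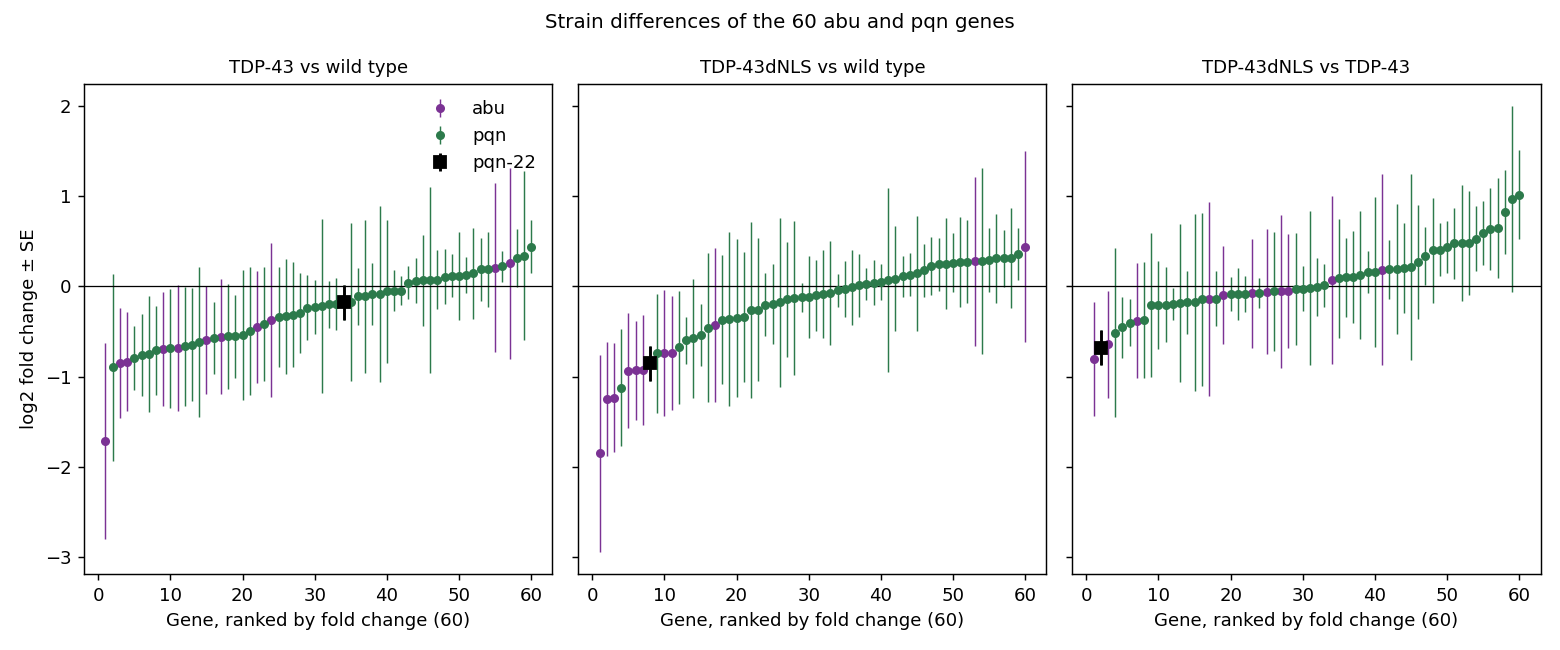
Log2 fold change ± SE of the 60 abu and pqn genes, ranked within each of 3 comparisons between strains (edgeR, 4 libraries per strain), with pqn-22 as a black square. Most intervals span 0, and the abu genes have the wider ones. The square lies at -0.85 against wild type and at -0.68 against TDP-43 for TDP-43ΔNLS, and at -0.18 for TDP-43 against wild type.

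TDP-43ΔNLS was also set against TDP-43, with libraries shared with both comparisons above. None of the 60 genes passed in edgeR (0.0% of all tested genes) or in DESeq2 (8 of all 16637 genes). In edgeR 1 of 60 had an unadjusted p under 0.05, against 2.57% of all genes. That gene was again pqn-22, with a log2 fold change of -0.68 ± 0.20 (unadjusted p = 0.00505, adjusted p = 0.9984 in edgeR). Its groups did not overlap (1 of 60 genes, against 0.733% of all genes in that direction and 1.04% in the other, where none of the 60 was found). The sign was negative for 32 of 60 genes, against 50.5% of all tested genes. The median log2 fold change was -0.08 over the abu genes, and 0.50 without TDP-43 replicate 4 and 0.21 without TDP-43ΔNLS replicate 2. The direction of the abu genes between the transgene strains therefore rested on single libraries.

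The next gene by p was pqn-75, which is expressed in the pharyngeal gland. It held 4.45, 5.29, 11.7 and 6.57 CPM in wild type, 1.97, 5.90, 5.87 and 3.41 CPM in TDP-43, and 15, 7.77, 7.57 and 4.38 CPM in TDP-43ΔNLS. The 2 transgene strains overlapped, and the highest library was TDP-43ΔNLS replicate 1. The log2 fold change was 1.02 ± 0.50 (unadjusted p = 0.0637, adjusted p = 0.9984 in edgeR). Its exons overlap those of W03D2.9 on the opposite strand by 198 bases. The others were pqn-88 (0.83 ± 0.46), pqn-31 (0.59 ± 0.35), pqn-24 (-0.40 ± 0.26) and pqn-92 (0.44 ± 0.29). In the same comparison 9 of 10 pharyngeal gland genes (median 0.51) and 10 of 11 pharynx genes (median 0.43) had positive values, and none passed. So did 11 of 11 intestine genes (median 0.60), while 11 of 12 body wall muscle genes (median -0.53) and 21 of 21 oocyte and eggshell genes (median -0.44) had negative values, and none of these passed. The part of these lists in the value of pqn-75 was not tested. Replicates 3 and 4 of TDP-43ΔNLS were larva-like, against replicate 4 alone in TDP-43, and the part of this imbalance in the list values was not tested.

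A fit with a term for the larva-like and adult-like sets, added after the data had been seen, narrowed the errors of the pqn genes more than those of the abu genes. The median standard error of the pqn genes in TDP-43 against wild type was 0.46 without the term and 0.25 with it, while that of the abu genes was 0.63 and 0.57. With the term, 0 of the 60 genes passed in any comparison, against 16, 9 and 1 of all 16637 genes in the order used above. The lowest adjusted p in edgeR was 0.486 (pqn-94) for TDP-43 against wild type, 0.145 (pqn-22) for TDP-43ΔNLS against wild type and 0.573 (pqn-22) for TDP-43ΔNLS against TDP-43. The abu medians were -0.75, -1.11 and -0.29 in the same order, with 11 of 11 genes negative in each, against 48.9%, 48.5% and 51.3% of all tested genes. The abu genes moved together between libraries, so 11 of 11 is not 11 separate observations. Leaving out the larva-like libraries gave abu medians of -1.11, -1.05 and 0.14, with 11, 11 and 4 of 11 genes negative, so the direction between the transgene strains depended on how these libraries were handled. The share of the 60 genes under an unadjusted p of 0.05 was 3, 4 and 4 of 60, against 6.28%, 5.2% and 4.41% of all tested genes.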

How the data were processed

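The deposited file was a single table of raw counts (reads per gene, made by the authors) for 12 libraries, with columns assigned to samples by their names. The submitters' processing notes list the WBcel235 build, R 4.4.2, the aligner STAR and the counter featureCounts 2.20.0. Their annotation release, use of strand and handling of multiply matching reads were not given in the sources used here. Gene names, exon lengths and coordinates were taken from Ensembl release 115 on the same build. Protein and promoter sequences were not used here.

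Counts were analysed in R 4.3.3. The filter filterByExpr with a minimum count of 10 kept 16637 genes holding 99.9% of counts, and libraries were scaled by TMM. All 12 libraries entered 1 quasi-likelihood fit in edgeR 4.0.16 (robust, group means, no covariate), with 3 contrasts, Benjamini-Hochberg adjustment over all 16637 genes and a threshold of 0.05. Standard errors came from the log2 fold change and its F statistic. Levels are CPM on TMM-scaled library sizes, and log2 CPM used a prior count of 2. The fit was also run on simulated counts with the same spread for every gene and no larva-like libraries. That run does not measure error rates for these data.

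The genes, the other 10 gene lists and the tests were chosen with earlier results of these data known. Named genes were the 6 with the lowest p in each comparison, the 6 highest per kilobase, the 6 with the widest and the 6 with the narrowest range of log2 CPM, and the 4 with the lowest p with the split term. Genes singled out by non-overlap, by the ratio of 2 wild type libraries or by position were chosen after their values were seen. Alternatives were DESeq2 1.42.0 size factors, upper-quartile scaling, no filter, a filter of 10 CPM, DESeq2's Wald test, voom of limma 3.58.1, only the groups compared, a replicate block, and fits that each omitted 1 library. The term for larva-like and adult-like libraries (the split term, cut at a mean of 6 log2 CPM of the oocyte list), that list's level as a covariate and leaving out the 4 larva-like libraries were added after seeing the data. Total counts were 20671982 to 26910097 per library.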

Additional observations from a re-analysis of the deposited data

Results flagged for a closer look

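Among 90 sets of 4 libraries (a named gene within a strain), 5 held a library whose gap to the nearest of the others, as a share of the strain's range, passed Dixon's 95% critical value for 4 samples. The share was 0.831 to 0.875 in these 5. Chance gives such a gap in about 1 in 20 sets. All 5 values were in larva-like libraries.

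In TDP-43 replicate 4, pqn-22 stood at 451.8 CPM, against 268.4 to 296.5 CPM in the other 3 TDP-43 libraries. In the same library pqn-13 stood at 143.9 CPM (14.17 to 30.4 CPM in the others) and pqn-83 at 157.6 CPM (100.2 to 109.9 CPM in the others). In TDP-43ΔNLS replicate 3, pqn-87 stood at 327.9 CPM, against 246.2 to 258.2 CPM in the other 3 libraries. In wild type replicate 4, pqn-65 stood at 119.7 CPM, against 77.38 to 84.18 CPM in the other 3 libraries. Each of the 5 values was the highest of its strain.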

How the results depend on the processing

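With 4 libraries per strain and a spread of several-fold within each, single abu genes could be measured only to a standard error of about 0.63 on the log2 scale. Of 410 values of named genes under alternatives, 409 kept their direction and side of the threshold. The exception was pqn-22 in TDP-43ΔNLS against wild type under DESeq2's Wald test, which raised the number of the 60 genes past the threshold from 0 to 1 (log2 fold change -0.85, adjusted p 0.0326). Over that gene's 23 alternatives the adjusted p ranged from 0.0326 to 1. The count of 409 is a weak check, as these genes were chosen by lowest p. Fits that omitted a library of the strain not compared hardly changed the fold changes. Leaving out 1 library at a time gave 0 of 60 genes in each comparison and put the median log2 fold change of the 60 genes between -0.65 and -0.04 for TDP-43 against wild type, between -0.25 and 0.06 for TDP-43ΔNLS against wild type, and between -0.13 and 0.53 for TDP-43ΔNLS against TDP-43. The value of 0.53 came without TDP-43 replicate 4, and the cause was not tested. Without the 4 larva-like libraries the medians were -0.35, -0.46 and 0.03. The count of genes whose larva-like and adult-like libraries do not overlap was 19, 18 with DESeq2 size factors and 19 with all genes of the name that had any count.

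Over all tested genes, edgeR called 1, 0 and 0 genes in the 3 comparisons in that order, DESeq2 21, 16 and 8, the split term 16, 9 and 1, the oocyte covariate 18, 10 and 3, and the fit without the larva-like libraries 9, 6 and 0. The replicate numbers were not shown to pair the samples: correlations of same-numbered deviations from the group means ran from -0.63 to 0.83. Replicate 4 was larva-like in all 3 strains, and its correlations between strains were 0.83, 0.72 and 0.68. The negative values were those of TDP-43ΔNLS replicate 3, which is larva-like, with the adult-like replicate 3 of wild type (-0.63) and of TDP-43 (-0.56). With the replicate block 0 of 60 genes passed in each comparison, and the medians were -0.35, -0.11 and 0.11.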
